A study of Mus musculus with 22 samples.

Results

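The genes described here are 34 genes that mark astrocytes or are strongly expressed in them, taken by name from a list. All 34 were found by Entrez gene number among the 20239 named genes of the arrays. None of the 34 lies on chromosome 16, part of which is triplicated in the mice studied. The study measured total RNA with Affymetrix mouse gene 1.0 ST arrays, which give 1 value per gene from many short probes along its transcripts. It asked which genes and pathways change with the extra segment in the cerebral cortex and in the hippocampus, and which change in both.

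The tissue came from 11 female mice aged 8 to 10 weeks. Of these, 6 were Ts1Cje, mice used to model Down syndrome, in which the distal part of chromosome 16 is present once more, joined to chromosome 12, and 5 were wild-type (WT) littermates without it. All came from a line in which Ts1Cje males had been crossed to C57Bl/6J females over several generations, and no group received a treatment. Each mouse gave 1 cortex and 1 hippocampus array, so there were 5 WT and 6 Ts1Cje arrays per region. The extra segment is carried by all cells of these mice, not by astrocytes alone. RNA was taken from whole dissected tissue, so fewer astrocytes and less RNA per astrocyte cannot be told apart. The regions were extracted with different kits, so kit and region cannot be told apart.

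Astrocytes are the glial cells that surround synapses and blood vessels. They take up glutamate and potassium released by neurons, return glutamine to them, move water at the vessel wall, and secrete lipoproteins and other factors. They differ between brain regions, and the hippocampus is known for its dense network of fibrous processes that contain glial fibrillary acidic protein, the product of Gfap. When tissue is injured or inflamed, astrocytes become reactive and raise Gfap and Vim, among other genes.

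The promoters of 4 of the 34 genes are shown because the results below turn on them. Of the 34, Gfap and Agt had the largest excess in the hippocampus with centred arrays, Dio2 the largest deficit there, and Mfge8 the lowest p between genotypes. Each sequence is the 250 bases before the start of the gene in RefSeq on assembly GRCm38.p6, printed 5′ to 3′ on the gene's own strand, which is the minus strand for all 4. Capitals mark matches to the motifs searched.
Gfap: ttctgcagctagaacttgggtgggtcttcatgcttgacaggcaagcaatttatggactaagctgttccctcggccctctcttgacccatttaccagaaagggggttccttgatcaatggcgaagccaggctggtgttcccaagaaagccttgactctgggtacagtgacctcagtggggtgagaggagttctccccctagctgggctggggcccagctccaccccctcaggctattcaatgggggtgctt
Agt: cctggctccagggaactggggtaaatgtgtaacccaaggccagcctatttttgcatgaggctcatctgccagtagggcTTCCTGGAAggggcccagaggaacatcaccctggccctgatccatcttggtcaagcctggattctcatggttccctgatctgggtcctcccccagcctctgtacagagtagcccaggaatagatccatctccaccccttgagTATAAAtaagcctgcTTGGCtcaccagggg
Dio2: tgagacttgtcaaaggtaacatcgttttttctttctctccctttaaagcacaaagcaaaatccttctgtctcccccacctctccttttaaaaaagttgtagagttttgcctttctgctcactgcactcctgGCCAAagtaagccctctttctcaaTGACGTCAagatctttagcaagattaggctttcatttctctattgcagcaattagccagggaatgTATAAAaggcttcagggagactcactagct
Mfge8: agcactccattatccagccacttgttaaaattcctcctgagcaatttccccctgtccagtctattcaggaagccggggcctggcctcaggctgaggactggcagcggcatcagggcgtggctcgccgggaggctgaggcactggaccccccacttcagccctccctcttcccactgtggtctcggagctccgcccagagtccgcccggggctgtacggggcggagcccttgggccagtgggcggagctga
These windows lie at chr11:102897201-102897450 for Gfap, chr8:124569707-124569956 for Agt, chr12:90739039-90739288 for Dio2 and chr7:79149061-79149310 for Mfge8.

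The motifs were searched on both strands. The STAT motif TTCNNNGAA was found in the Agt window, 172 to 164 bases before the start, and in 7.02% of all 32851 windows. The TATA motif TATAAA was found 30 to 25 bases before the start of Agt and of Dio2, and in 12.4% of all windows. The short NFI motif TTGGC was found in Agt, 15 to 11 bases before the start, on the other strand in Dio2, 119 to 115 bases before it, and in 41.5% of all windows. The CRE motif TGACGTCA was found in Dio2, 95 to 88 bases before the start, and in 1.55% of all windows. Neither the full NFI motif (the letters TTGGC and, 5 bases on, GCCAA; 0.037% of windows), which contains the short one, nor the SOX motif AACAAT (9.42% of windows) was found in any of the 36 windows that the table gives for 30 of the astrocyte genes. The Gfap and Mfge8 windows held none of the motifs searched. Over the 30 genes, 6 had the STAT motif (Acsbg1, Agt, Aldoc, Ntsr2, Slc1a3 and Slc7a11). The short NFI motif was in 17 of the 30, the TATA motif in 5 and the CRE motif in 1. Counted by window, as the shares above are, 6 of the 36 held the STAT motif and 19 the short NFI motif. The TATA motif was in 5 of these windows and the CRE motif in 1. A match describes these letters in this window and is not evidence of a bound factor.

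The values are log2 signals. Array medians over all features ran from 7.53 to 7.62 in cortex and from 6.91 to 6.95 in hippocampus, so genotypes were compared within a region and regions after subtracting each array's median. The region labels were set beside neuron markers. All 12 hippocampal neuron genes measured were higher in the hippocampus arrays, and of 11 genes of cortical projection neurons 7 were lower and 3 higher there. Of all genes, 20.2% were called higher and 21.2% lower there by the test described below, with centred arrays. The marker lists were chosen with earlier results of these data known, so they are not an independent check of the labels. All 34 astrocyte genes lay above the median of every array, the lowest being F3 in the cortex of a Ts1Cje mouse at 0.62 above it. The arrays of WT mouse 60 and Ts1Cje mouse 64 stood apart in both regions. Their median correlation with the other arrays of their region was 0.968 and 0.977 in cortex, against 0.996 to 0.997 for the others, and 0.991 and 0.985 in hippocampus, against 0.995 to 0.996. Counts are therefore also given without these 2 mice, a choice made after seeing the data. The 2 arrays titled mouse 60 carry mouse 61, the number of a Ts1Cje mouse, in their description, and the title was used.

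In the cortex, no astrocyte gene differed between Ts1Cje and WT mice beyond the threshold of the test. A gene was called changed at an adjusted p under 0.05 in limma, a linear model fitted to all 20239 genes with Benjamini-Hochberg adjustment over all of them. Of the 34 astrocyte genes 0 were called, beside 0.00494% of all genes (1 gene), and 0 had an unadjusted p under 0.05, beside 1.3% of all genes (0.41% lower in Ts1Cje). The log2 fold change was above 0 for 13 and below 0 for 21 (61.8%, beside 51.5% of all genes), with a median of -0.018, beside -0.003 over all genes. This direction rested on single mice: without Ts1Cje mouse 64 the split was 20 above and 14 below (median 0.022), and without WT mouse 60 it was 6 above and 28 below (median -0.066). The lowest and highest of the 34 were -0.15 for Agt and 0.10 for Vim, and in 0 of them did the 2 groups not overlap (0.306% of all genes, 0.0741% lower in Ts1Cje). Without mice 60 and 64 the count called stayed at 0, beside 0.158% of all genes, and 2 genes (Fgfr3 and Agt) had an unadjusted p under 0.05, beside 5.97%.

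The lowest cortical p among the 34 was that of Mfge8, which encodes a secreted protein that tags dying cells and debris for engulfment. Its log2 signal in the 5 WT cortices was 10.38, 10.36, 10.50, 10.34 and 10.44, and in Ts1Cje it ran from 10.13 to 10.38 with a median of 10.29. The groups overlapped, with 4 of 6 Ts1Cje mice below every WT mouse. The change in Mfge8 came to -0.13 ± 0.064 on the log2 scale (SE; adjusted p = 1 in limma).

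Slc7a10 encodes a transporter of small amino acids such as serine and glycine. It stood at 9.65, 9.48, 9.51, 9.55 and 9.55 in WT and from 9.28 to 9.58, median 9.43, in Ts1Cje. Although 5 of 6 Ts1Cje mice lay below every WT mouse, the log2 fold change was only -0.12 ± 0.064 (SE). Mlc1, a membrane protein of astrocyte endfeet, was measured at 10.10, 10.00, 9.97, 9.98 and 9.96 in WT and between 9.81 and 10.00, median 9.90, in Ts1Cje. Its log2 fold change was -0.094 ± 0.057 (SE). Sox9, a transcription factor needed to make astrocytes, was at 9.42, 9.40, 9.46, 9.53 and 9.43 in WT and between 9.21 and 9.49, median 9.33, in Ts1Cje, where the log2 fold change was -0.11 ± 0.067 (SE). The adjusted p of each of these 3 genes was 1 in limma, and all 3 overlapped between genotypes.

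The classical astrocyte markers overlapped between genotypes in the cortex. Gfap, the main intermediate filament of astrocytes, was at 8.62, 8.93, 8.96, 8.94 and 9.01 in WT and between 8.42 and 8.94, median 8.87, in Ts1Cje. The lowest cortex value of each genotype belonged to mice 60 and 64, and the log2 fold change was -0.11 ± 0.11 (SE; 95% interval -0.35 to 0.13). Vim, which encodes vimentin, a filament protein of astrocytes and several other cell types, was at 10.02, 10.48, 10.50, 10.59 and 10.57 in WT and between 9.90 and 10.94, median 10.53, in Ts1Cje. Its interval was the widest of the marker genes, from -0.28 to 0.48. S100b encodes a calcium-binding protein whose human gene lies on the chromosome that is trisomic in Down syndrome, while the mouse gene is outside the triplicated segment. It was at 9.79, 9.77, 9.81, 9.82 and 9.70 in WT and between 9.74 and 9.98, median 9.85, in Ts1Cje, a log2 fold change of 0.066 ± 0.060 (SE).

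The water channel gene Aqp4 stood at 10.77, 10.97, 11.06, 11.06 and 11.01 in WT cortex and between 10.79 and 11.09, median 11.01, in Ts1Cje. Its log2 fold change of 0.018 ± 0.077 (SE) was the smallest of the 5 markers and changed sign to -0.008 after quantile normalization. Slc1a2, which encodes the main glutamate transporter of astrocytes, was at 12.84, 12.80, 12.84, 12.80 and 12.81 in WT and between 12.74 and 12.81, median 12.78, in Ts1Cje. Its difference of -0.038 ± 0.047 (SE) had a 95% interval of -0.14 to 0.066.

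In the hippocampus, the astrocyte genes lay mostly below 0 in Ts1Cje, led by 3 genes of secreted proteins, but again none passed the threshold. Limma called 0 of the 34, beside 0.114% of all genes (23 genes). An unadjusted p under 0.05 was found for 4 genes, all lower in Ts1Cje (Mfge8, Agt, Clu and Fgfr3). That is 11.8% of the astrocyte genes, beside 3.71% of all genes in either direction and 1.69% in the lower direction. The log2 fold change was below 0 for 27 of the 34 (79.4%), beside 53.7% of all genes, with a median of -0.052, beside -0.006 over all genes. Without mice 60 and 64 limma called 0, beside 0.183% of all genes, 4 had an unadjusted p under 0.05, beside 8.37%, 25 were below 0 and the median was -0.032. Leaving out any 1 mouse left 24 to 30 of the 34 below 0. With arrays centred on their medians 23 were below 0, and the median was -0.036, beside 0.010 over all genes. With the 6746 dimmest genes left out, the median over the remaining genes was -0.019, while that of the 34 stayed at -0.052.

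Mfge8 showed the widest separation. Its log2 signal in WT hippocampus was 10.00, 9.90, 10.01, 9.99 and 10.10, and in Ts1Cje it ran from 9.60 to 9.86 with a median of 9.78. All 6 Ts1Cje mice lay below all 5 WT mice, the only one of the 34 genes without overlap in this comparison (0.637% of all genes had no overlap, 0.257% with Ts1Cje lower). The means were 10.00 ± 0.071 in WT (SD, n = 5) and 9.76 ± 0.090 in Ts1Cje (SD, n = 6), a log2 fold change of -0.24 ± 0.056 (SE; limma adjusted p = 0.445). Without mice 60 and 64 it was -0.24 (limma adjusted p = 0.379). The mice fall into number series 60 to 65 and 87 to 98, and the difference was -0.25 in each.

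Agt encodes angiotensinogen, the precursor of the angiotensin peptides, which astrocytes make in the brain. Its WT values were 9.21, 8.91, 8.90, 8.80 and 8.95, and its Ts1Cje values ran from 8.57 to 8.86 with a median of 8.70. The highest WT value was that of mouse 60, and 5 of 6 Ts1Cje mice lay below every WT mouse. The log2 fold change reached -0.26 ± 0.075 (SE; adjusted p = 0.892 in limma), -0.35 within the first number series and -0.14 within the second.

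Clu encodes clusterin, a secreted chaperone found on lipoproteins. It was at 11.18, 11.22, 11.25, 11.25 and 11.27 in WT and between 11.05 and 11.19, median 11.12, in Ts1Cje. Here 5 of 6 Ts1Cje mice lay below every WT mouse, and the fitted change came to -0.12 ± 0.043 on the log2 scale (SE; adjusted p = 1 in limma). Fgfr3, a receptor for fibroblast growth factors that marks astrocytes, was at 9.36, 9.27, 9.41, 9.22 and 9.26 in WT and between 9.00 and 9.28, median 9.18, in Ts1Cje. With 3 of 6 Ts1Cje mice below every WT mouse, the change in this gene came to -0.14 ± 0.060 on the log2 scale (SE; adjusted p = 1 in limma).

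**Figure D1:**
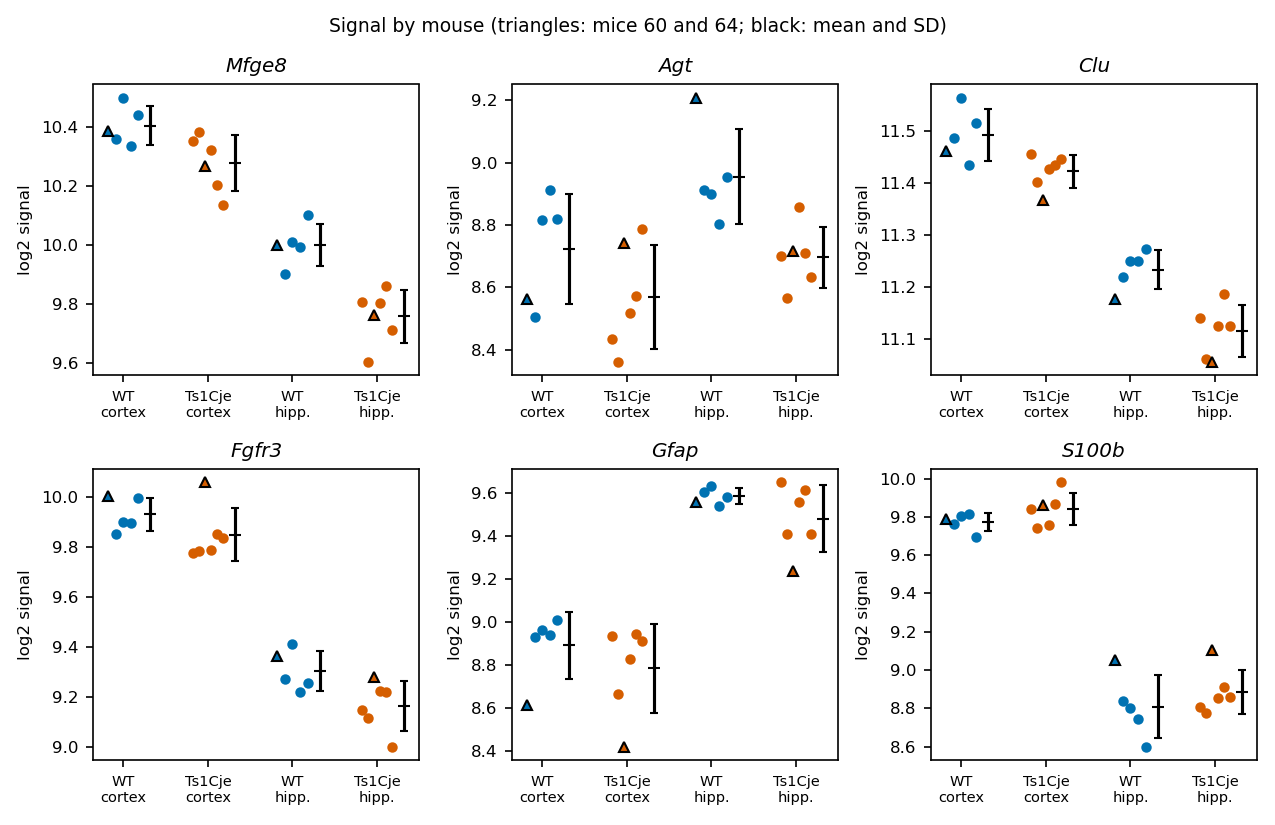
Log2 signal of named astrocyte genes (vertical axes) in each mouse, by genotype and region (horizontal axis). Points are mice, triangles are mice 60 and 64, and black marks are the mean and SD. Mfge8 in Ts1Cje hippocampus lies between 9.60 and 9.86, below all WT values of 9.90 to 10.10, while Gfap overlaps between genotypes.

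The marker genes overlapped between genotypes in the hippocampus too. Gfap was at 9.56, 9.61, 9.63, 9.54 and 9.58 in WT and between 9.24 and 9.65, median 9.48, in Ts1Cje, so the Ts1Cje mice included both the lowest and the highest value. The log2 fold change was -0.10 ± 0.072 (SE; 95% interval -0.26 to 0.053). Vim was at 10.22, 10.45, 10.50, 10.53 and 10.59 in WT and between 10.11 and 10.65, median 10.39, in Ts1Cje, with a difference of -0.074 ± 0.092 (SE).

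S100b, at 9.05, 8.84, 8.80, 8.74 and 8.60 in WT and between 8.78 and 9.10, median 8.86, in Ts1Cje, had the highest log2 fold change of the 34 at 0.077 ± 0.082 (SE). Aqp4 was at 10.59, 10.65, 10.67, 10.65 and 10.60 in WT and between 10.46 and 10.68, median 10.60, in Ts1Cje, a difference of -0.048 ± 0.048 (SE). Slc1a2 was at 12.28, 12.18, 12.22, 12.22 and 12.28 in WT and between 12.12 and 12.22, median 12.21, in Ts1Cje, a difference of -0.044 ± 0.041 (SE). For each of these 5 genes limma gave an adjusted p of 1.

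By role, the 6 genes of secreted and surface proteins had the lowest median in hippocampus among the groups of 3 or more genes. Their median log2 fold change was -0.087, and 5 of 6 were below 0. F3, the tissue factor that starts blood clotting, was the exception at 0.033, while Apoe, the main brain apolipoprotein, stood at -0.056 and Sparcl1, a matrix protein that supports synapse formation, at -0.001. The 3 genes of the cytoskeleton and calcium binding, Gfap, Vim and S100b, had a median of -0.074, with 2 below 0. Of the 8 genes for water, ion and junction proteins 7 were below 0 (median -0.040), among them the gap junction genes Gja1 at -0.16 ± 0.086 and Gjb6 at -0.11 ± 0.084 (SE). Of the 5 genes grouped under glutamate uptake and recycling 4 were below 0 (median -0.044), with glutamine synthetase (Glul) at 0.008. That group includes Slc7a10, whose product carries small amino acids such as serine rather than glutamate. Of the 6 metabolic genes 4 were below 0 (median -0.027), from the glycogen-targeting subunit gene Ppp1r3c at -0.16 to the thyroid hormone deiodinase gene Dio2 at 0.025. Of the 4 receptor genes 3 were below 0 (median -0.051), and both transcription factor genes were, Sox9 at -0.13 and Id4 at -0.11. Apart from Mfge8, Agt, Clu and Fgfr3, none of the 34 had an unadjusted p under 0.05.

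Markers of cell types that line the ventricles, next to the hippocampus, were also mostly below 0 in Ts1Cje hippocampus. Of 12 choroid plexus genes 10 were below 0 (median -0.22, 0 called), and their mean log2 level ran from 8.34 to 8.88 in WT mice and from 8.13 to 8.98 in Ts1Cje mice. Of 11 ependymal genes 10 were below 0 (median -0.086, 0 called), and their mean log2 level ran from 6.50 to 6.64 in WT mice and from 6.45 to 6.55 in Ts1Cje mice. None of these markers is among the 34 genes, although ependymal cells are known to make some of the 34, such as Vim and Clu. Other cell types were measured in the same way. All 8 genes of pericytes and mural cells were below 0 (median -0.099), as were 10 of 12 hippocampal neuron genes (median -0.091) and 6 of 8 meningeal fibroblast genes (median -0.12), whereas 9 of 15 general neuron genes and 9 of 11 oligodendrocyte genes were above 0 (medians 0.022 and 0.046). Limma called 0 genes in each of these lists. For the remaining cell types the mean log2 levels in WT and Ts1Cje hippocampus lay closer together or went either way. They were 8.165 and 8.192 for oligodendrocyte precursors, 8.536 and 8.543 for endothelial cells, and 7.960 and 7.943 for microglia. For cortical projection neurons they were 8.355 and 8.349, and for radial glia-like cells 7.758 and 7.704. The part of these cells in the hippocampal values of the astrocyte genes was not tested.

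Averaging the cortex and hippocampus value of each mouse gave the same leading genes. Limma called 0 of the 34, beside 0.0593% of all genes (12 genes), and 3 had an unadjusted p under 0.05 (Mfge8, Agt and Clu), all lower in Ts1Cje, beside 1.7% of all genes in either direction and 0.711% in the lower direction. Values below 0 were found for 27 of the 34 (median -0.030), beside 53% of all genes, but for only 18 without mouse 64 (median -0.010) and for 23 without mice 60 and 64. Without mice 60 and 64 the test called 0, beside 0.257% of all genes, and 4 (Fgfr3 added) had an unadjusted p under 0.05, beside 8.17%. Mfge8 averaged 10.19, 10.13, 10.25, 10.16 and 10.27 in the WT mice and from 9.92 to 10.08, median 10.02, in Ts1Cje. Clu averaged 11.32, 11.35, 11.41, 11.34 and 11.39 in WT and from 11.21 to 11.31, median 11.28, in Ts1Cje. In these 2 genes all 6 Ts1Cje mice lay below all WT mice (0.534% of all genes had no overlap, 0.217% with Ts1Cje lower).

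Agt averaged 8.89, 8.71, 8.86, 8.86 and 8.89 in WT and from 8.46 to 8.73, median 8.66, in Ts1Cje, with 5 of 6 Ts1Cje mice below every WT mouse. The log2 fold changes were -0.18 ± 0.045 for Mfge8, -0.21 ± 0.059 for Agt and -0.094 ± 0.039 for Clu (SE), with limma adjusted p of 0.662, 1 and 1. Fgfr3, the next by p, stood at -0.11 ± 0.053 (SE). The averages use the same arrays as the regional comparisons and are not independent of them.

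The genotype difference itself did not differ between regions beyond the threshold for any of the 34. For the difference of differences, hippocampus minus cortex, limma called 0 of the 34 and 0% of all genes, and 0 of the 34 had an unadjusted p under 0.05, beside 1.28% of all genes. Values below 0 were found for 25 of the 34, beside 53.3% of all genes, for 17 without mouse 60, for 18 after quantile normalization and for 20 without mice 60 and 64, when 0 had an unadjusted p under 0.05, beside 5.34% of all genes. The median of the 34 was -0.050, beside -0.009 over all genes. With the 6746 dimmest genes left out, the median over the remaining genes was -0.042, close to that of the 34. The lowest p was that of Mfge8 at -0.12 ± 0.081, followed by Gpr37l1, a receptor found on astrocytes, at -0.10 ± 0.073 (SE). Apoe stood at -0.064 ± 0.062 and Id4, an inhibitor of basic helix-loop-helix transcription factors, at -0.15 ± 0.16 (SE), both with limma adjusted p of 1. The 95% intervals were -0.28 to 0.053 for Mfge8 and -0.37 to 0.16 for Agt, so these arrays do not show whether the lower hippocampal values are particular to the hippocampus. The marker genes stood at 0.002 for Gfap, -0.066 for Aqp4, -0.006 for Slc1a2, 0.011 for S100b and -0.17 for Vim.

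**Figure D2:**
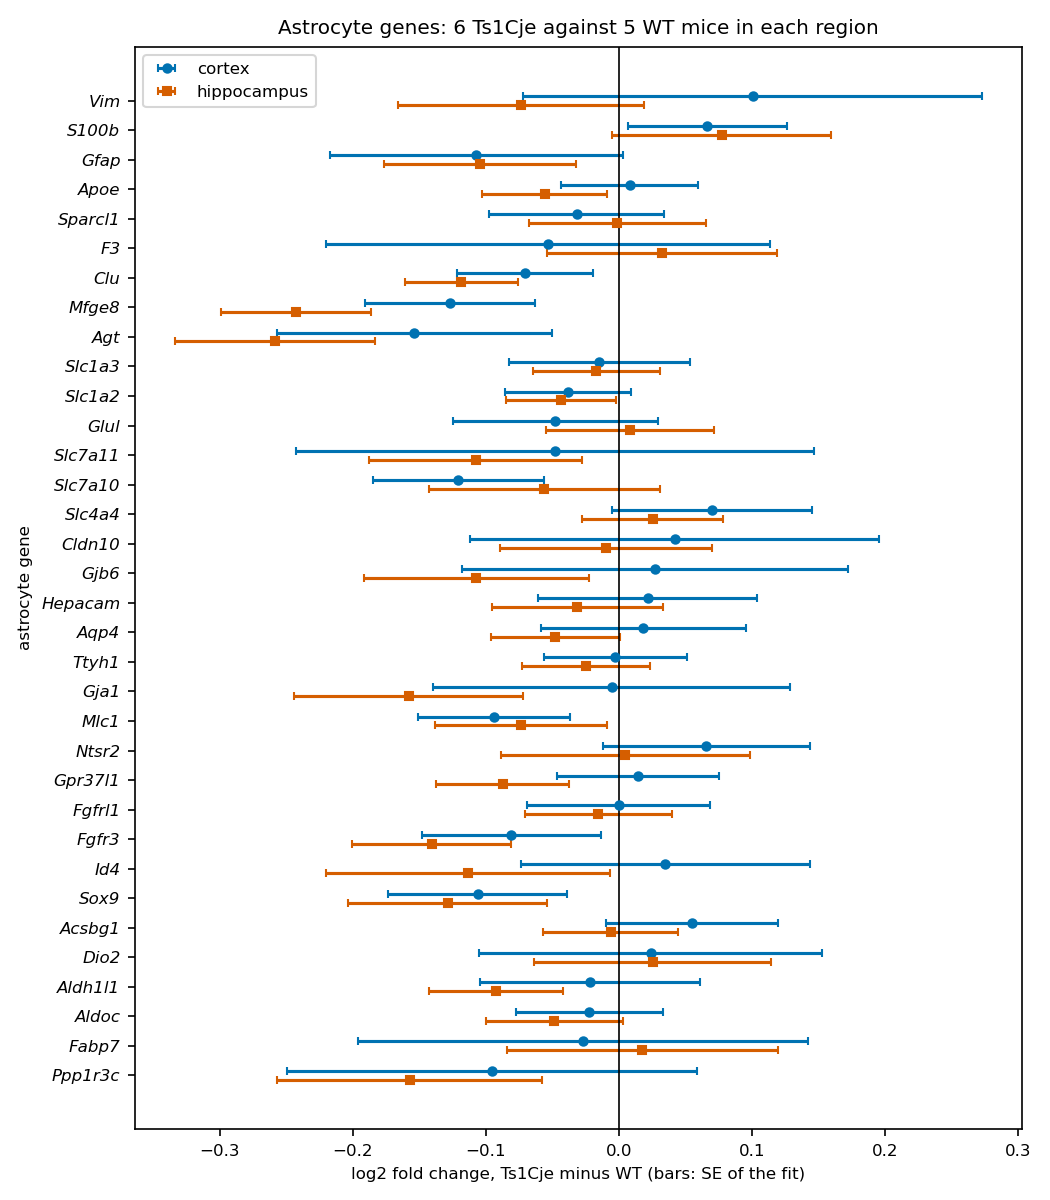
Log2 fold change of each of the 34 astrocyte genes, Ts1Cje minus WT (horizontal axis), in cortex (circles) and hippocampus (squares), with the standard error of the fit as bars. Hippocampal values reach -0.26 for Agt and -0.24 for Mfge8, and 27 of 34 lie below 0, whereas no gene passed the threshold in either region.

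As a single figure per mouse, the mean log2 signal of the 34 genes was 10.27, 10.41, 10.46, 10.50 and 10.49 in WT cortex and 10.21 to 10.51, median 10.42, in Ts1Cje cortex. In hippocampus it was 10.01, 9.95, 9.99, 10.01 and 10.03 in WT and 9.83 to 9.99, median 9.96, in Ts1Cje. The lowest cortex value of each genotype and the lowest Ts1Cje hippocampus value came from mice 60 and 64, and the genotypes overlapped in both regions. The group means were 10.43 ± 0.094 and 10.40 ± 0.102 in cortex and 10.00 ± 0.030 and 9.94 ± 0.064 in hippocampus (SD, n = 5 WT and n = 6 Ts1Cje). They differed by -0.021 in cortex and -0.063 in hippocampus, the latter -0.037 without mice 60 and 64. No test was made of this mean, since the genes were listed with results of these arrays known.

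**Figure D3:**
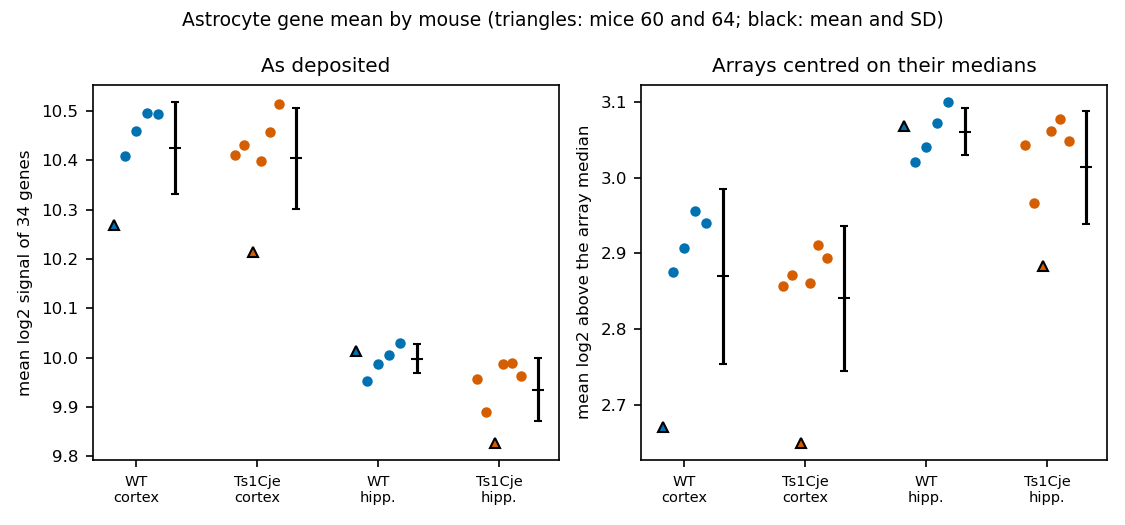
Mean log2 signal of the 34 astrocyte genes in each mouse (vertical axes), as deposited at left and after subtracting each array's median at right, by genotype and region (horizontal axis). Points are mice, triangles are mice 60 and 64, and black marks are the mean and SD. The genotypes overlap within each region, and the order of the regions turns with the centring, from 10.43 against 10.00 in WT as deposited to 2.87 against 3.06 when centred.

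Between regions the astrocyte genes differed widely, most of them in the direction of the hippocampus relative to the median gene. With each array centred on its median, limma called 24 of the 34, which is 70.6%, beside 41.4% of all genes. Of these, 20 were higher in hippocampus (58.8% of the 34, beside 20.2% of all genes) and 4 were lower, beside 21.2% of all genes. The median log2 difference was 0.17, beside -0.004 over all genes. In 5 genes (Gfap, Agt, Apoe, Clu and Gpr37l1) all 11 hippocampus values lay above all 11 cortex values, beside 9.71% of all genes without overlap in either direction. Without mice 60 and 64 the test called 26, beside 65.5% of all genes.

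This direction depends on the centring. In the values as deposited the median of all genes was 0.63 lower in hippocampus, and 33 of the 34 were called, 31 lower and 2 (Gfap and Agt) higher. Over all genes the calls there were 299 higher and 18986 lower, against 4097 and 4282 with centred arrays. After quantile normalization of all arrays 25 were called, 19 higher and 6 lower. Over all genes 47.8% were then called, 4921 higher and 4760 lower. The genes called higher with both centred and quantile-normalized arrays numbered 16, or 47.1% of the 34. Over all genes that share can be at most the 20.2% called higher with centred arrays, and for lower calls at most 21.2%. Among the 34, all 4 called lower with centred arrays were lower in both. These 4 were also lower as deposited, but the downward shift of all genes there fixes that direction in advance. The median of the 34 lay 0.18 above that of all genes with centred arrays, a distance that centring cannot change, and 0.16 above it after quantile normalization.

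**Figure D4:**
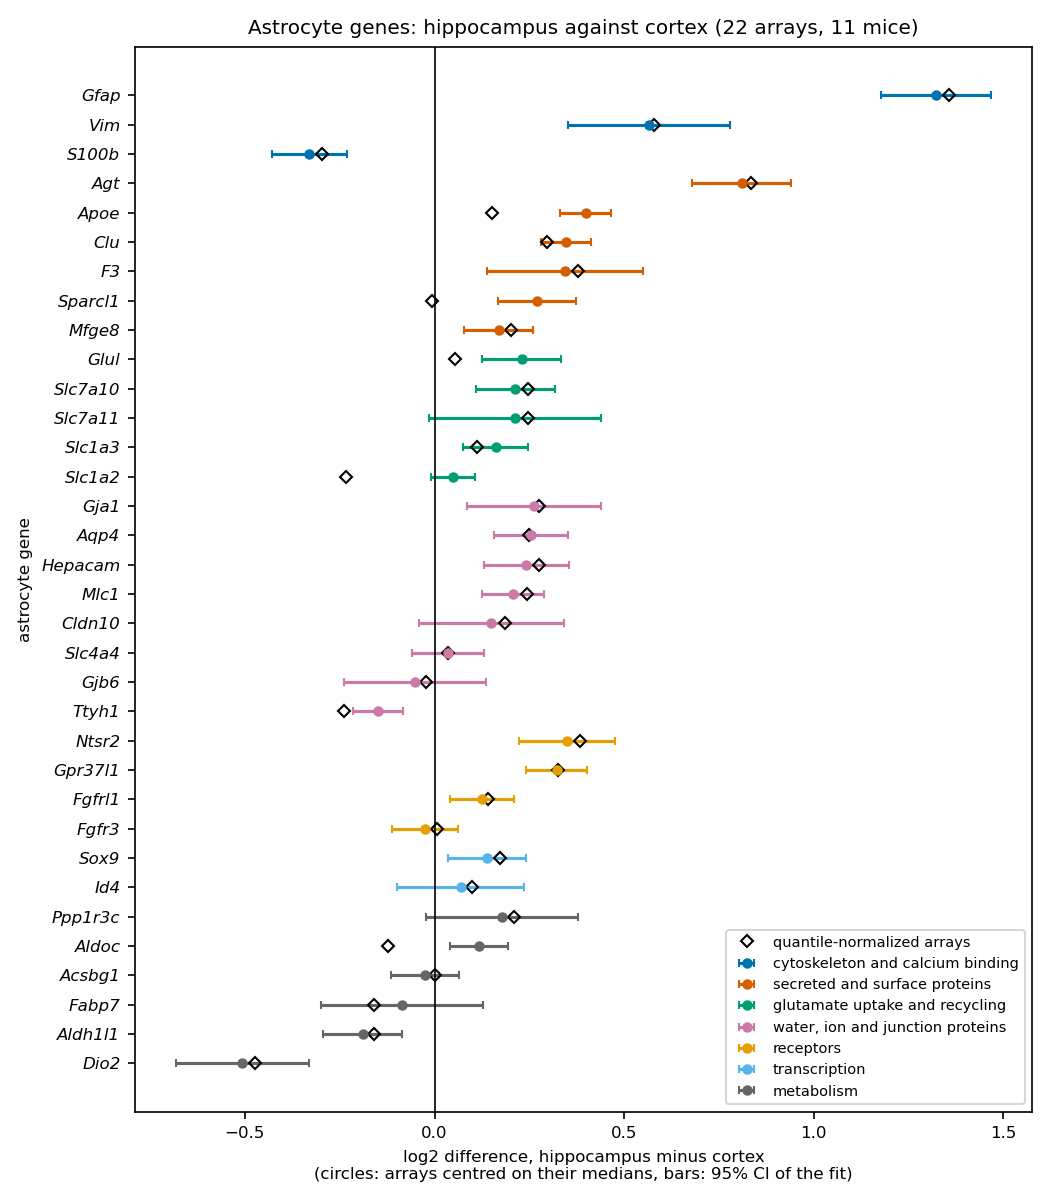
Log2 difference of each astrocyte gene, hippocampus minus cortex (horizontal axis), over 22 arrays from 11 mice. Circles are centred arrays with the 95% interval of the fit as bars, coloured by the role of the gene, and open diamonds are quantile-normalized arrays. Gfap stands at 1.32 and Agt at 0.81, Dio2 at -0.51 and S100b at -0.33, and the diamonds of Slc1a2 at -0.23 and Aldoc at -0.12 lie on the other side of 0 from their circles, as do those of Sparcl1, Fgfr3 and Acsbg1, which lie close to 0.

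All 6 genes of secreted and surface proteins were called higher in hippocampus relative to the array median. The level of Agt above the array median ran from 0.80 to 1.37, median 1.03, in the 11 cortices and from 1.64 to 2.26, median 1.87, in the 11 hippocampi. The difference was 0.81 ± 0.063 (SE; limma adjusted p = 8.29e-10), a 1.75-fold excess, and it was above 0 in each of the 11 mice. Agt was also called higher in the values as deposited, by 0.18.

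Apoe, whose protein carries cholesterol from astrocytes to neurons, ran from 4.82 to 4.97, median 4.94, in cortex and from 5.18 to 5.40, median 5.32, in hippocampus. Its difference of 0.40 ± 0.033 (SE; limma adjusted p = 1.8e-09) shrank to 0.15 after quantile normalization. Clu ran from 3.80 to 4.01, median 3.89, and from 4.11 to 4.34, median 4.23, a difference of 0.35 ± 0.031 (SE; limma adjusted p = 9.69e-09). Neither gene overlapped between regions, and both were higher in the hippocampus of 11 of 11 mice.

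F3 ran from 0.62 to 1.66, median 1.46, in cortex and from 1.40 to 1.89, median 1.74, in hippocampus. The low end in each region was mouse 64, and the difference was 0.34 ± 0.099 (SE; limma adjusted p = 0.00798), or 0.28 without mice 60 and 64. Mfge8 rose by 0.17 ± 0.044 and Sparcl1 by 0.27 ± 0.049 (SE), although Sparcl1 was at -0.007 and not called after quantile normalization.

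Of the 4 receptor genes 3 were higher. Ntsr2, a neurotensin receptor found on astrocytes, ran from 2.45 to 2.82, median 2.67, in cortex and from 2.65 to 3.18, median 3.02, in hippocampus, overlapping through a single hippocampus. The difference was 0.35 ± 0.061 (SE; limma adjusted p = 7.51e-05), and 10 of 11 mice showed it. Gpr37l1 rose by 0.32 ± 0.038 and Fgfrl1, a decoy-like receptor for fibroblast growth factors, by 0.13 ± 0.041 (SE). The call of Fgfrl1 was lost after quantile normalization and without mouse 65 (limma adjusted p = 0.0744 and 0.0565). Fgfr3 was at -0.026 ± 0.042 (SE), with a 95% interval of -0.11 to 0.061.

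Of the transcription factor genes, Sox9 rose by 0.14 ± 0.050 (SE; limma adjusted p = 0.0299). Its call was lost when any of mice 60, 61, 65, 87, 95 or 98 was left out, with adjusted p up to 0.0769. Id4 was at 0.069 ± 0.081 (SE).

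Among the genes grouped under glutamate uptake and recycling, Glul rose by 0.23 ± 0.050 and Slc1a3, the other astrocyte glutamate transporter gene, by 0.16 ± 0.041 (SE). Slc7a10, the small amino acid transporter gene placed in this group, rose by 0.21 ± 0.050 (SE). Slc1a2 ran from 5.18 to 5.28, median 5.24, in cortex and from 5.18 to 5.35, median 5.29, in hippocampus. Its difference of 0.048 ± 0.028 (SE; limma adjusted p = 0.184) was not called, and it was called lower, by -0.23, after quantile normalization. Glul kept no call under that normalization, at 0.055. Slc7a11, the cystine and glutamate exchanger gene, was at 0.21 ± 0.11 (SE; limma adjusted p = 0.129). With the mouse as a random replicate block, which uses the pairing of the regions within a mouse, Slc7a11 and Ppp1r3c were also called (limma adjusted p = 0.0333 and 0.0293).

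Of the 8 genes for water, ion and junction proteins 4 were higher and 1 lower. Aqp4 ran from 3.17 to 3.56, median 3.46, in cortex and from 3.52 to 3.75, median 3.70, in hippocampus. The difference was 0.25 ± 0.047 (SE; limma adjusted p = 0.000144), above 0 in 11 of 11 mice, and 0.25 after quantile normalization. Gja1 rose by 0.26 ± 0.085, Hepacam, an adhesion protein of endfeet, by 0.24 ± 0.054 and its partner Mlc1 by 0.21 ± 0.039 (SE).

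Ttyh1, which encodes a membrane protein of the tweety family, fell by 0.15 ± 0.032 (SE; limma adjusted p = 0.000635) and was lower in the hippocampus of 11 of 11 mice. The other connexin gene, Gjb6, was at -0.052 ± 0.090, the bicarbonate cotransporter gene Slc4a4 at 0.036 ± 0.046 and the tight junction gene Cldn10 at 0.15 ± 0.092 (SE), none of them called. Cldn10 was called higher with the mouse as a fixed replicate block and after quantile normalization (limma adjusted p = 0.0304 and 0.0116). The 2 connexin genes thus stood on different sides of 0, but their difference was not tested.

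The metabolic genes were the group in which lower calls outnumbered higher calls, 2 to 1 of 6. Dio2, which converts thyroxine to active thyroid hormone in astrocytes, ran from 1.98 to 2.72, median 2.51, in cortex and from 1.64 to 2.16, median 1.98, in hippocampus. The difference was -0.51 ± 0.084 (SE; limma adjusted p = 4.47e-05), below 0 in 11 of 11 mice, and it was -0.47 after quantile normalization. Aldh1l1, a folate enzyme often used to mark all astrocytes, fell by 0.19 ± 0.050 (SE; limma adjusted p = 0.00389), and 9 of 11 mice showed it.

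Aldoc, a glycolytic enzyme, was called higher by 0.12 ± 0.037 (SE) with centred arrays and lower, at -0.12, with quantile-normalized arrays. It is the only one of the 34 genes called in opposite directions by these 2 scalings. Acsbg1, an acyl-CoA synthetase, was at -0.026 ± 0.043, the fatty acid-binding protein gene Fabp7 at -0.087 ± 0.10 and Ppp1r3c at 0.18 ± 0.097 (SE), none of them called.

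The 3 genes of the cytoskeleton and calcium binding spread the farthest. Gfap ran from 0.86 to 1.46, median 1.38, above the array median in cortex and from 2.29 to 2.74, median 2.63, in hippocampus. Every hippocampus lay above every cortex, and the difference was 1.32 ± 0.070 (SE; limma adjusted p = 1.27e-12), a 2.50-fold excess. It was between 1.20 and 1.60 in the 11 mice, 1.36 after quantile normalization and 0.69 as deposited, so its direction did not depend on the scaling.

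Vim ran from 2.34 to 3.38, median 2.98, in cortex and from 3.17 to 3.72, median 3.52, in hippocampus. The groups overlapped, the difference was 0.57 ± 0.10 (SE; limma adjusted p = 0.000123), and within mice it ran from 0.0098 to 0.86. S100b ran the other way, from 2.14 to 2.36, median 2.25, in cortex and from 1.67 to 2.16, median 1.91, in hippocampus. Its difference of -0.33 ± 0.048 (SE; limma adjusted p = 7.5e-06) was below 0 in 11 of 11 mice.

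Markers of other cells differed between regions as well. All 12 choroid plexus genes were called higher in hippocampus (median 2.14), where their mean log2 level ran from 8.13 to 8.98, against 6.36 to 7.87 in cortex. All 11 ependymal genes were called higher (median 0.52). Of 9 genes of radial glia-like cells, the Gfap-expressing stem cells of the dentate gyrus, 5 were called higher. Of 15 general neuron genes 6 were called higher and 4 lower (median 0.078), and of 11 oligodendrocyte genes 5 higher (median 0.064). The part of these cells in the regional values of the astrocyte genes was not tested.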

How the data were processed

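Signals of 22 Affymetrix mouse gene 1.0 ST arrays (11 mice, cortex and hippocampus, RNA with integrity numbers above 9 per the labels) were taken as the deposited log2 values, 1 per feature, which the authors made with RMA per the submitters' processing notes. Not given in the sources used here are the RMA version, the probe definition and whether RMA ran on cortex and hippocampus jointly. Of 21225 features, 986 had no gene symbol and were left out, and the remaining 20239 were named through Entrez numbers with RefSeq tables of assembly GRCm38.p6. Array data hold no read depth, and the number of arrays limits the precision.

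Genotypes were compared within each region, in the mean of both regions per mouse, and as the difference between regions. Regions were compared after subtracting each array's median. Each comparison used lmFit and eBayes of limma 3.58.1 in R 4.3.3, two-sided, with Benjamini-Hochberg adjustment over 20239 genes, and was tested on simulated data. The mice are separate littermates, so p-values of the genotype comparisons within a region and in the means measure the spread between mice. The main fits of the region difference and of genotype by region used all arrays without the mouse as a block. Their p-values measure the spread between arrays, and the pairing within mice entered only with the mouse as a replicate block. Same-numbered arrays come from the same mouse per the labels, and their deviations from the group means correlated with a median r of 0.265 (0.052 to 0.761). On 2 arrays the title gives mouse 60 and the description mouse 61, and the title was used.

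The members and the 15 marker lists (239 of 249 genes measured) were chosen with earlier results of these data known. Values are given for called members, at most 8 by size of change, or the 4 lowest p where fewer than 4 were called, and always for Gfap, Aqp4, Slc1a2, S100b and Vim. Other lists give up to 5 called genes, or the 2 lowest p of the astrocyte lists. Other genes are named with their role. Alternatives were quantile normalization, centring or none, array weights, a trended robust prior, leaving out the 6746 dimmest genes, the number series as a covariate, the mouse as a replicate block, and leaving out each mouse.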

Additional observations from a re-analysis of the deposited data

Results flagged for a closer look

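The gap of the highest or lowest mouse to the next, as a share of the group's range, was checked in 76 groups of values, and 5 passed the 95% limit for groups of this size. Chance passes about 1 in 20 groups. All 5 came from mouse 60 or mouse 64. In WT cortex the gap below the next mouse took 0.794 of the Gfap range, with 8.62 in mouse 60 against 8.93. For Vim, mouse 60 was again lowest, at 10.02 against 10.48 in the next mouse, a share of 0.807. In Ts1Cje cortex mouse 64 had the lowest F3 value, 8.18 against 8.97, a share of 0.859. The same mouse had the highest Fgfr3 value there, 10.06 against 9.85, a share of 0.736. In Ts1Cje hippocampus it again had the lowest F3 value, 8.34 against 8.66, a share of 0.748.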

How the results depend on the processing

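The count of astrocyte genes called between genotypes was 0 in every comparison under every alternative run, the replicate block included (0 for the genotype by region difference). Between regions it was 24, beside 41.4% of all genes. It was 26 with the mouse as a random replicate block and 27 as a fixed one, beside 54% of all genes with either. Without 1 mouse it was 22 to 25, beside 36.5% to 48% of all genes. The region difference of the mean of the 34 genes turned from 0.18 to -0.45 in values as deposited (0.16 to 0.19 without 1 mouse). As deposited, Vim was at -0.064, Apoe at -0.23, Ntsr2 at -0.28, Clu at -0.28, F3 at -0.29, Aqp4 at -0.38 and Slc1a2 at -0.58, which follows the -0.63 shift of all genes. Quantile normalization turned Slc1a2 to -0.23 between regions and Aqp4 to -0.0082 between genotypes in cortex. Its genotype by region value turned to 0.0077 for Slc1a2 with that normalization, 0.0079 with array weights, 0.018 with centred arrays and 0.012 without mice 60 and 64. Vim in the animal means was at -0.0054 with the number series as a covariate. Leaving out 1 mouse gave -0.033 to 0.059 for Aqp4 and -0.0040 to 0.23 for Vim in cortex, and -0.046 to 0.018 for Aqp4 and -0.069 to 0.10 for Vim in the animal means. For genotype by region it gave -0.027 to 0.065 for Gfap, -0.015 to 0.0088 for Slc1a2 and -0.029 to 0.069 for S100b. The genotype difference of the mean ran from -0.060 to 0.017 in cortex and from -0.074 to -0.041 in hippocampus. The cause of these changes was not tested. The alternative values of the counts, the means and the genes named by the rule were scored against the main ones. A gene stayed the same if it kept its direction and side of the threshold, and a mean if it stayed within the SD between mice. A count stayed the same if its size was similar, whichever way its genes went. The region count as deposited thus scored as the same although most calls turned to lower. By these rules 984 values stayed the same, 38 reversed and 1 moved. The other 2 were those of Slc1a2 between regions, called with array weights and without mice 60 and 64 (limma adjusted p = 0.0341 and 0.0459). Among the other genes, region calls of Ppp1r3c, Cldn10 and Slc7a11 were gained and those of Sox9, Fgfrl1, Glul and Sparcl1 lost under some alternatives.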

Other observations

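Another 47 genes known from astrocytes differed between regions in both directions. With centred arrays limma called 20 higher and 8 lower in hippocampus, beside 20.2% and 21.2% of all genes, with a median log2 difference of 0.029. Chrdl1, a secreted factor through which astrocytes mature synapses, stood at -1.33 ± 0.082 and the signalling regulator Rgs20 at -0.83 ± 0.060, while the urea transporter gene Slc14a1 stood at 0.83 ± 0.046, Paqr6 at 0.79 ± 0.091 and Igfbp2, which binds insulin-like growth factors, at 0.71 ± 0.066 (SE). Between genotypes 0 were called in either region. An unadjusted p under 0.05 was found for 3 in cortex, beside 1.3% of all genes, and for 12 in hippocampus, beside 3.71%. Of the 12, 2 were higher and 10 lower in Ts1Cje, beside 1.69% of all genes lower. Without mice 60 and 64 the counts were 4 and 11, beside 5.97% and 8.37% of all genes. Cbs, an enzyme of sulphur amino acid metabolism, had a log2 fold change of -0.23 ± 0.073 in cortex and -0.24 ± 0.074 in hippocampus, and Eva1a of -0.21 ± 0.071 in hippocampus (SE). Grin2c, a glutamate receptor subunit gene, stood at -0.19 ± 0.059 in cortex and -0.16 ± 0.037 in the animal means (SE; limma adjusted p = 0.575), and was called in the means without mice 60 and 64 (-0.17 ± 0.028, limma adjusted p = 0.0418). The genotype by region difference was -0.22 ± 0.099 for Entpd2 and -0.32 ± 0.15 for Phkg1 (SE), neither called.

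Of 33 genes that rise in reactive astrocytes, limma called 11 higher and 5 lower in hippocampus, beside 20.2% and 21.2% of all genes, with a median of 0.075. The protease inhibitor gene Serpina3n stood at 1.68 ± 0.069, Cd109 at 1.33 ± 0.089, Amigo2 at 1.23 ± 0.077, the prostaglandin synthase gene Ptgs2 at 0.86 ± 0.099 and Fkbp5 at 0.83 ± 0.068 (SE). Several of these, such as Ptgs2, are also made by neurons. Between genotypes 0 were called, and the median was 0.023 in cortex and 0.007 in hippocampus. The histocompatibility gene H2-D1 stood at 0.58 ± 0.18 and Ptgs2 at 0.31 ± 0.16 in cortex, and Lcn2 at 0.20 ± 0.069 and the chemokine gene Cxcl10 at 0.19 ± 0.076 in hippocampus (SE), each with a limma adjusted p of 1. Among the radial glia-like genes called higher in hippocampus, Hopx stood at 1.24 ± 0.051 and Thbs4 at 0.61 ± 0.095 (SE).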
